A study of Mus musculus with 3 samples.

Results

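The receptors that retinal neurons use to sense glutamate, GABA and glycine were followed across 3 microarrays of mouse retina. The members were all genes with a symbol of an AMPA, kainate, NMDA, delta or metabotropic glutamate receptor, a GABA-A or GABA-B receptor, or a glycine receptor. A probe set was used when the platform annotation gave it exactly 1 gene symbol, and the probe set with the highest mean over the arrays stood for its gene. This gave 46 genes of the 22180 measured, in 11 receptor classes.

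The study asked how agents related to caveolin-1, the coat protein of caveolae, alter gene expression in the retina. Each of the 3 groups was 1 array of RNA pooled from 5 to 6 retinae of C57 mice after an injection into the vitreous. Retinae were taken 2 hr after AP (the control, an abbreviation that the labels do not expand), 2 hr after cavtratin, and 2 days after Cav1-shRNA. Cavtratin is a peptide that enters cells and mimics the scaffolding domain of caveolin-1, and the hairpin RNA takes its name from the Cav1 transcript. With 1 array per group there was no replicate and no test was run. Each difference given is therefore one between arrays, not between conditions. Both comparisons with AP control used the same AP control array. The Cav1-shRNA array also differed from AP control in time after injection, so agent and time cannot be told apart there. Cav1 itself had a value of 8.26 in all 3 arrays, so the array labelled Cav1-shRNA did not show a lower value of the targeted gene. Many deposited values tied exactly between arrays, so this tie does not show whether the Cav1 transcript was reduced.

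Photoreceptors and bipolar cells release glutamate, and amacrine and horizontal cells release GABA or glycine. AMPA, kainate and NMDA receptors are glutamate-gated cation channels built from 4 subunits, whereas GABA-A and glycine receptors are chloride channels, and the metabotropic glutamate receptors and GABA-B receptors signal through G proteins. In the retina, OFF bipolar cells receive photoreceptor glutamate through AMPA and kainate receptors, ON bipolar cells through the metabotropic receptor mGluR6, and the axon terminals of rod bipolar cells carry GABA-A receptors made of rho subunits.

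Most of the receptor subunits that differed at all between arrays were at their highest value in AP control. Values are deposited expression values per probe set on the log2 scale, where a difference of 1 is 2-fold. A gene counted as at or above the expression floor when its mean over the 3 arrays was at least 6.50, the median over all probe sets with 1 symbol. Of the 46 subunits, 36 were at or above the floor and 10 below it. Grm3, with a mean of 6.51, lay just inside the floor and Grin2a, with 6.44, just outside. Of the 36, 16 had exactly the same value in all 3 arrays (44.4%, against 43.8% of all 11370 genes at or above the floor). Of the other 20, 18 had AP control as the single highest array (90.0%), whereas among all genes with unequal values 26.8% did. Cav1-shRNA was the single highest array for 1 of the 20 and cavtratin for 0, beside 27.0% and 18.6% of all unequal genes. AP control was thus the single highest array for 18 of 36 subunits, against a background of 15.1% of all genes. With each array centred on its median this held for 12 of 36 subunits and 6.97% of all genes, and after quantile normalization for 17 and 15.4%. The differences were small: none of the 46 subunits was 2-fold apart in any comparison.

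The 5′ regions of 4 subunits are shown because they mark the extremes of that pattern. Among subunits at or above the floor, Gria4 and Gria2 had the largest differences from AP control, and Gabrr3 differed from AP control while its relative Gabrr1 did not. The sequences are the 250 bases before the annotated start in RefSeq, build GRCm38.p6, 5′ to 3′ on the strand of the gene, and capitals mark CpG dinucleotides. They were chosen after their values were seen.
Gria4: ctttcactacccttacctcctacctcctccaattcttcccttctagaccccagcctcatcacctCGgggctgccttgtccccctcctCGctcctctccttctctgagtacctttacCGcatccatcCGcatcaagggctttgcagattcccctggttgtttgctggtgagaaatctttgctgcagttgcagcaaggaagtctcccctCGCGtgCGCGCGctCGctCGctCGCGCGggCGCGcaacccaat
Gria2: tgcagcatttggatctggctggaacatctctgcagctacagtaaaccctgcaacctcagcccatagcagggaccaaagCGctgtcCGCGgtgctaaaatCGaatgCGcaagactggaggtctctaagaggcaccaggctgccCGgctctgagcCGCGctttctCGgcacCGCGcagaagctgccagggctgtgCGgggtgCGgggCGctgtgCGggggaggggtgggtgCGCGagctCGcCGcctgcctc
Gabrr3: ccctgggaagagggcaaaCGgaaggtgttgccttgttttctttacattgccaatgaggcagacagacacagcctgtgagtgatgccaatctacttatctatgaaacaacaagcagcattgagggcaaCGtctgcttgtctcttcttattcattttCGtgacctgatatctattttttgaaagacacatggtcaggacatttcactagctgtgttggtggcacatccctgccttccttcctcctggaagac
Gabrr1: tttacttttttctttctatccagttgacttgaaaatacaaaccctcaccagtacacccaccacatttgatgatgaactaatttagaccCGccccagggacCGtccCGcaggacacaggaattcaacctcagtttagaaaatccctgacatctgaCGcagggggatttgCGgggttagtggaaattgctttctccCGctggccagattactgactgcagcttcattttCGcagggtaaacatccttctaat
The windows lie at chr9:4796235-4796484 on the minus strand for Gria4, chr3:80802836-80803085 on the minus strand for Gria2, chr16:59407132-59407381 on the plus strand for Gabrr3 and chr4:33132306-33132555 on the plus strand for Gabrr1. The Gria4 and Gria2 windows held 16 and 19 CpG dinucleotides and had GC contents of 58.8% and 64.8%. Both rho windows had a GC content of 46%, with 3 CpG in Gabrr3 and 7 in Gabrr1.

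In the deposited values the 4 AMPA receptor subunits were lower in both other arrays than in AP control, as were 15.1% of all genes. With each array centred on its median, Gria3 turned to 0.020 in Cav1-shRNA, and 6.97% of all genes were lower in both. Gria1, Gria2, Gria3 and Gria4 encode the GluA subunits that form the channel of fast excitatory transmission. Gria4 was at 9.77 in AP control, 9.50 in cavtratin and 9.56 in Cav1-shRNA. Its differences from AP control were -0.27 in cavtratin, or -17.1% on the linear scale, and -0.21 in Cav1-shRNA, or -13.3%. Gria2, whose edited form makes AMPA receptors impermeable to calcium, was at 10.56, 10.38 and 10.29 in AP control, cavtratin and Cav1-shRNA. It stood at -0.17 in cavtratin (-11.3%) and at -0.27 in Cav1-shRNA (-17.1%), so the order of the other arrays was the reverse of that of Gria4. Gria1 had a value of 8.33 in AP control and 8.22 in both others, a difference of -0.11. For Gria3 the values were 8.94 in AP control and 8.90 in both others, a difference of -0.038. The class mean was -0.15 in cavtratin and -0.16 in Cav1-shRNA, and under centring -0.14 and -0.097. Gria1 in Cav1-shRNA was at -0.048 under centring.

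Among kainate receptor subunits, Grik2, which encodes GluK2, was at 8.87 in AP control, 8.71 in cavtratin and 8.65 in Cav1-shRNA. Its differences from AP control were -0.16 (-10.6%) and -0.22 (-14.1%). Grik5, a high-affinity subunit that needs a partner to form a channel, was at 8.78, 8.75 and 8.69 in the same order, with differences of -0.023 and -0.088. Grik1, the subunit of kainate receptors on OFF cone bipolar cells, was at 9.66 in all 3 arrays after rounding and at -0.0032 in both comparisons. Grik4, the other high-affinity subunit, was at 6.70 in all 3 arrays. Grik3 lay below the floor, with 6.47 in Cav1-shRNA and 6.32 in both other arrays, the only kainate subunit with a value above AP control. Thus 3 of the 4 kainate subunits at or above the floor were lower than AP control in each comparison and 1 was equal, and under centring 2 were lower and 2 higher in each. Of all genes, 25.8% in cavtratin and 21.7% in Cav1-shRNA were lower, and under centring 23.8% and 9.71%.

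The NMDA and delta receptor subunits at or above the floor, Grin2b, Grin3a and Grid1, had no difference between arrays in the deposited values. Such ties held for 43.8% of all genes at or above the floor. Grin2b, a glutamate-binding subunit of NMDA receptors, was at 7.14 in all 3 arrays, and Grin3a, a glycine-binding modulatory subunit, was at 6.77. Grid1, the delta receptor subunit that binds cerebellins at synapses, was at 7.68 in all 3. Below the floor, Grin2c, Grin2d and Grin3b were equal in all arrays at 5.65, 6.29 and 6.08. Grin2a, another glutamate-binding subunit, was at 6.54 in AP control, 6.37 in cavtratin and 6.39 in Cav1-shRNA, with differences of -0.17 and -0.15, but its mean lay under the floor.

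**Figure D1:**
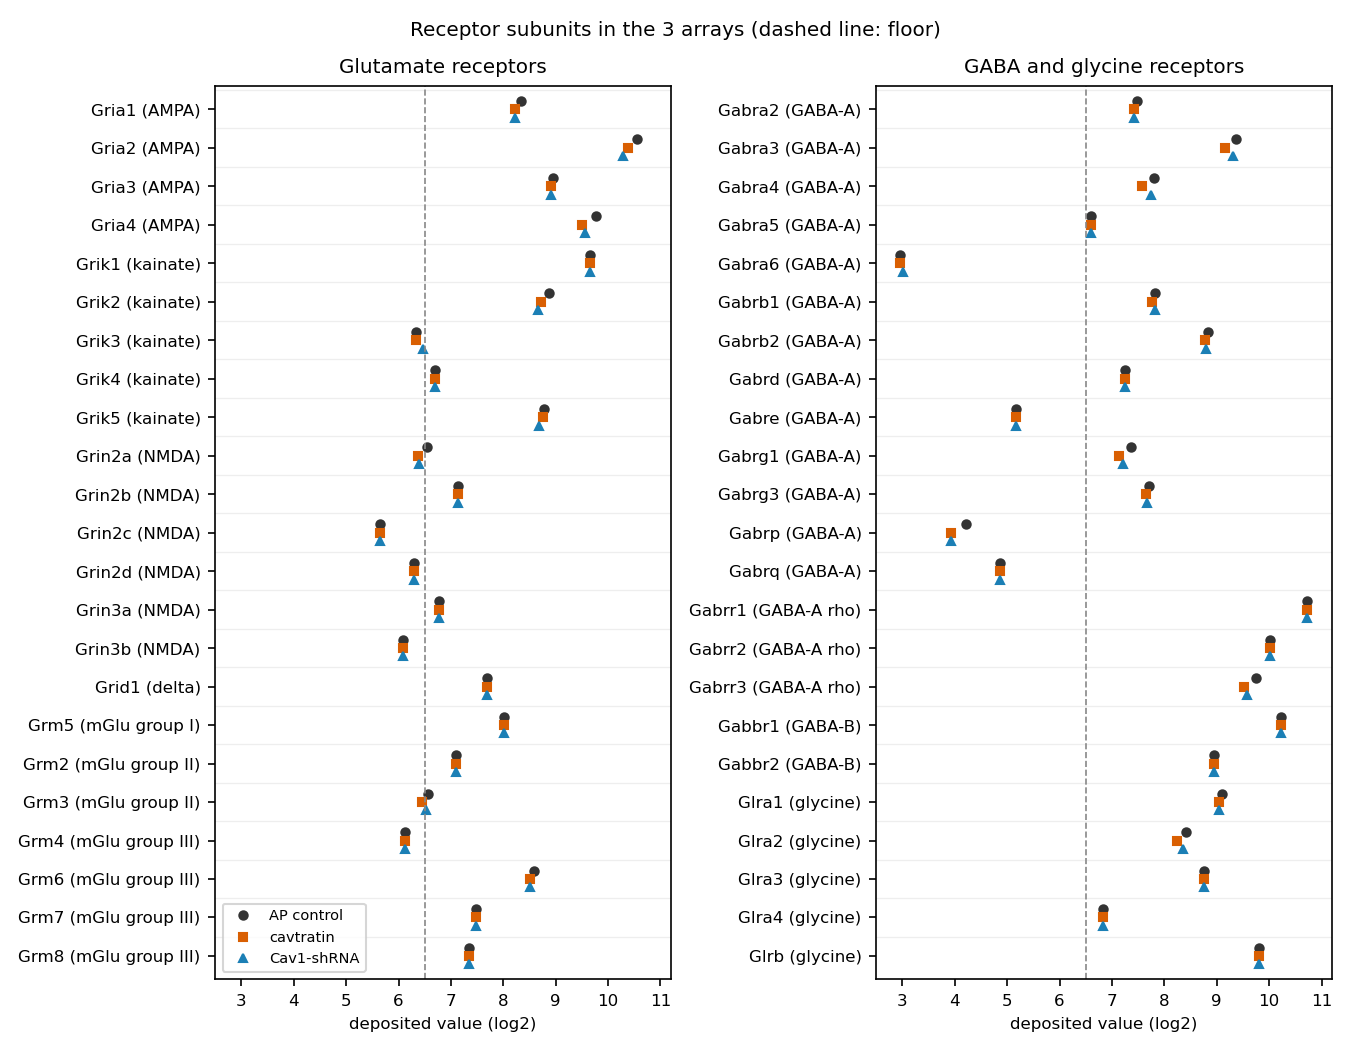
Deposited log2 value of each of the 46 subunits in the 3 arrays, with glutamate receptors on the left and GABA and glycine receptors on the right; the dashed line is the floor of 6.50, and positions of different genes are not comparable with each other. Where the symbols part on this deposited scale, the AP control circle lies furthest right in all subunits but Grik3, Gabra6, Gabrb1 and Glra3; at or above the floor that is 18 subunits, or 12 after centring.

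Among metabotropic glutamate receptors at or above the floor, Grm6 and Grm3 differed between arrays, and Grm2, Grm5, Grm7 and Grm8 tied. Of all genes at or above the floor 43.8% tied in all 3 arrays, so such ties were common. Grm6 encodes mGluR6, the receptor through which ON bipolar cells sense photoreceptor glutamate. Its value was 8.58 in AP control and 8.50 in both others, a difference of -0.079. A second Grm6 probe set, below the floor, was at 5.91 in AP control and 5.90 in both others. Grm3, a group II receptor that inhibits adenylyl cyclase, was at 6.56 in AP control, 6.44 in cavtratin and 6.53 in Cav1-shRNA, with differences of -0.11 and -0.026. The other group II receptor, Grm2, was at 7.09 in all 3 arrays. Grm5, a group I receptor coupled to phospholipase C, was at 8.01 in all 3. The presynaptic group III receptors Grm7 and Grm8 were at 7.48 and 7.35 in all 3, and Grm4, below the floor, was at 6.12. A second probe set of Grm7 had 6.99 in cavtratin and 7.03 in both other arrays, so the tie of Grm7 held for 1 of its 2 probe sets.

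GABA-A receptor subunits were lower in cavtratin than in AP control in 7 of 9 cases at or above the floor, as deposited and under centring. Of all genes 25.8% and 23.8% were. In Cav1-shRNA 6 of 9 subunits were lower as deposited and 3 of 9 under centring, beside 21.7% and 9.71% of all genes. The alpha subunits help to form the GABA binding site. Gabra4 was at 7.80 in AP control, 7.57 in cavtratin and 7.74 in Cav1-shRNA, with differences from AP control of -0.23 (-14.7%) and -0.062 (-4.23%). Gabra3 was at 9.38, 9.16 and 9.32 in the same order, with differences of -0.21 and -0.056. Gabra2 had 7.48 in AP control and 7.41 in both others. Gabra5 was at 6.60 in all 3 arrays. For Gabra3 and Gabra4 the cavtratin array stood apart, and the Cav1-shRNA value was the nearer to AP control.

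Of the gamma subunits, Gabrg1 was at 7.37 in AP control, 7.13 in cavtratin and 7.22 in Cav1-shRNA. Its differences were -0.24 (-15.3%) and -0.15 (-9.79%), the latter -0.091 under centring. Gabrg3 was at 7.70, 7.66 and 7.67. Gabrb2, a beta subunit of the most common GABA-A receptors, was at 8.84, 8.78 and 8.79. Gabrb1 was at 7.81, 7.77 and 7.82, and its difference of 0.0061 made it the only subunit at or above the floor that was higher in Cav1-shRNA than in AP control. Gabrd, the delta subunit of extrasynaptic receptors, was at 7.25 in all 3. The class mean was -0.10 in cavtratin and -0.046 in Cav1-shRNA, where it was 0.012 under centring. The remaining GABA-A subunits lay below the floor. Gabre and Gabrq were equal in all arrays at 5.17 and 4.87, and Gabra6, a subunit of cerebellar granule cells, had 3.01 in Cav1-shRNA and 2.95 in both other arrays. Gabrp was at 4.20 in AP control and 3.93 in both others.

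The rho subunits, which form the slow GABA receptors of bipolar cell terminals, split. Gabrr1 and Gabrr2 were at 10.72 and 10.01 in all 3 arrays. Gabrr3 was at 9.76 in AP control, 9.53 in cavtratin and 9.57 in Cav1-shRNA, with differences of -0.23 (-14.8%) and -0.18 (-11.9%). Both GABA-B receptor subunits were equal in all 3 arrays, as were 43.8% of all genes at or above the floor. Gabbr1, which binds GABA, was at 10.22, and Gabbr2, which couples to the G protein, at 8.94.

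Glycine receptor alpha subunits bind the transmitter, and the beta subunit ties the receptor to the scaffold gephyrin. Glra2 was at 8.42 in AP control, 8.24 in cavtratin and 8.36 in Cav1-shRNA, with differences of -0.19 (-12.1%) and -0.061. Glra1 had 9.10 in AP control and 9.04 in both others, a difference of -0.060. Glra3 was at 8.76 in all 3 arrays after rounding, with a difference of -0.0057 in cavtratin. Glra4 and the beta subunit gene Glrb were at 6.83 and 9.81 in all 3.

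Counted over all classes, cavtratin minus AP control was below 0 for 20 of the 36 subunits, against 25.8% of all genes, and above 0 for 0, against 19.2%. The median over the 36 was -0.014 and the mean -0.065, where the median over all genes was 0 and the mean 0.025. A difference of at least 0.25, or 1.19-fold, separated 1 subunit downward (Gria4, against 0.923% of all genes) and 0 upward (3.9% of all genes). At least 2-fold apart were 0 subunits, against 1.18% of all genes. Over all 46 subunits, floor or not, 22 were lower, 0 higher and 24 equal. By mode of action, 18 of the 28 channel-forming subunits were lower than AP control in cavtratin (64.3%), as were 2 of the 8 G protein-coupled ones (25.0%); this difference was not tested.

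**Figure D2:**
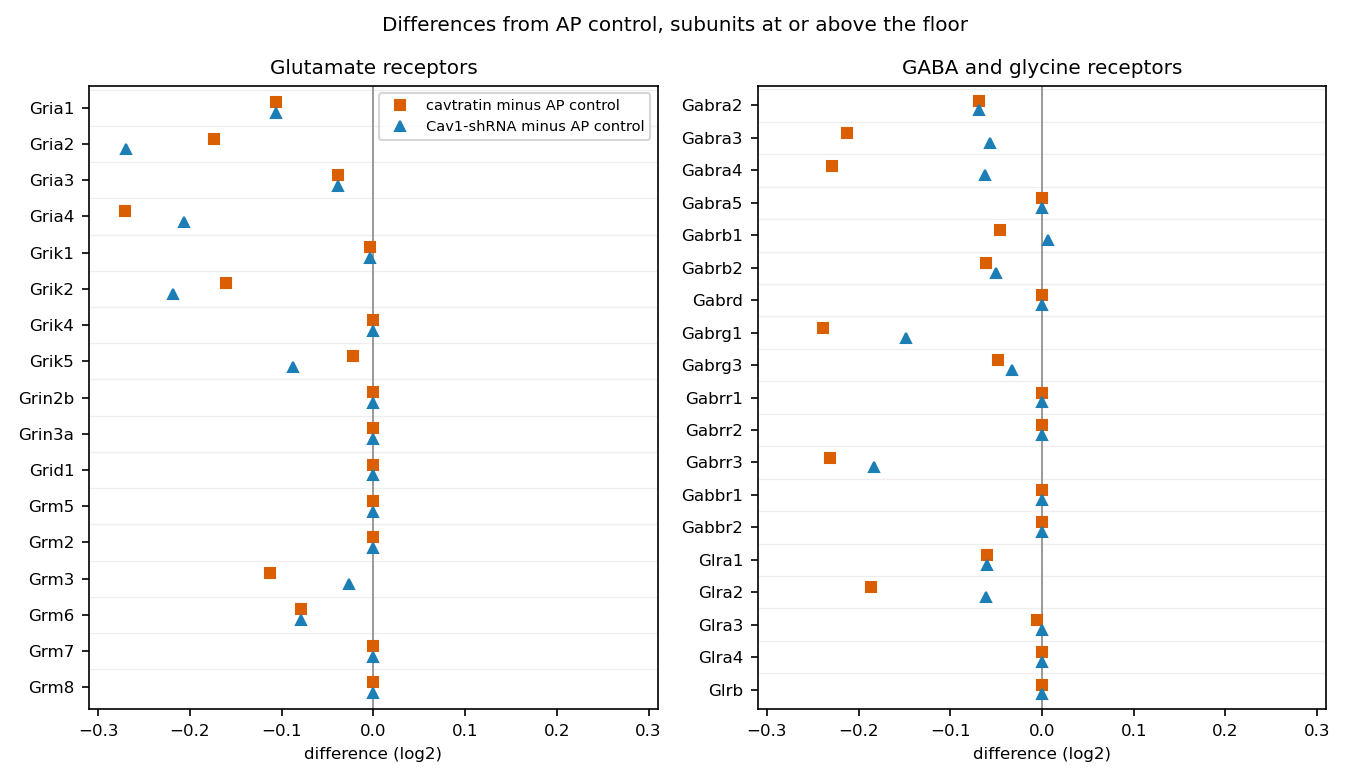
Difference from AP control (log2, horizontal axis) of each of the 36 subunits at or above the floor, with squares for cavtratin and triangles for Cav1-shRNA; both use the same AP control array. All squares lie at or left of 0, between -0.27 and 0, and all triangles but that of Gabrb1 do too; after centring each array on its median, 18 squares and 24 triangles would lie right of 0.

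Cav1-shRNA minus AP control was below 0 for 18 of the 36 subunits, against 21.7% of all genes, and above 0 for 1 (Gabrb1), against 25.1%. The median was -0.0016 and the mean -0.049, beside a median of 0 over all genes. Gria2 alone was at least 0.25 lower (1.26% of all genes), 0 subunits were at least 0.25 higher (2.93%) and 0 were 2-fold apart (0.44%). Of all 46 subunits, 20 were lower, 3 higher (Grik3, Gabra6 and Gabrb1) and 23 equal. Of the channel-forming subunits 16 of 28 were lower and 1 was higher, and of the G protein-coupled ones 2 of 8 were lower. Among glutamate receptors 9 of 17 were lower than AP control in each comparison. Among GABA and glycine receptors 11 of 19 were lower in cavtratin and 9 of 19 in Cav1-shRNA.

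Cav1-shRNA minus cavtratin, which leaves out the shared AP control array, was above 0 for 11 of the 36 subunits (25.9% of all genes) and below 0 for 3 (19% of all genes). The median was 0 and the range -0.096 to 0.17. At least 0.25 higher or lower were 0 subunits, beside 0.941% and 3.05% of all genes, and 0 were 2-fold apart (0.668%). The 3 subunits lower in Cav1-shRNA were Gria2, Grik2 and Grik5, with differences of -0.096, -0.058 and -0.065. The 11 higher ones were Gria4 and Grm3 together with 9 of the 19 GABA and glycine receptor subunits. The largest of these were Gabra4 at 0.17, Gabra3 at 0.16 and Glra2 at 0.13. None of the 19 GABA and glycine subunits was lower in Cav1-shRNA than in cavtratin.

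**Figure D3:**
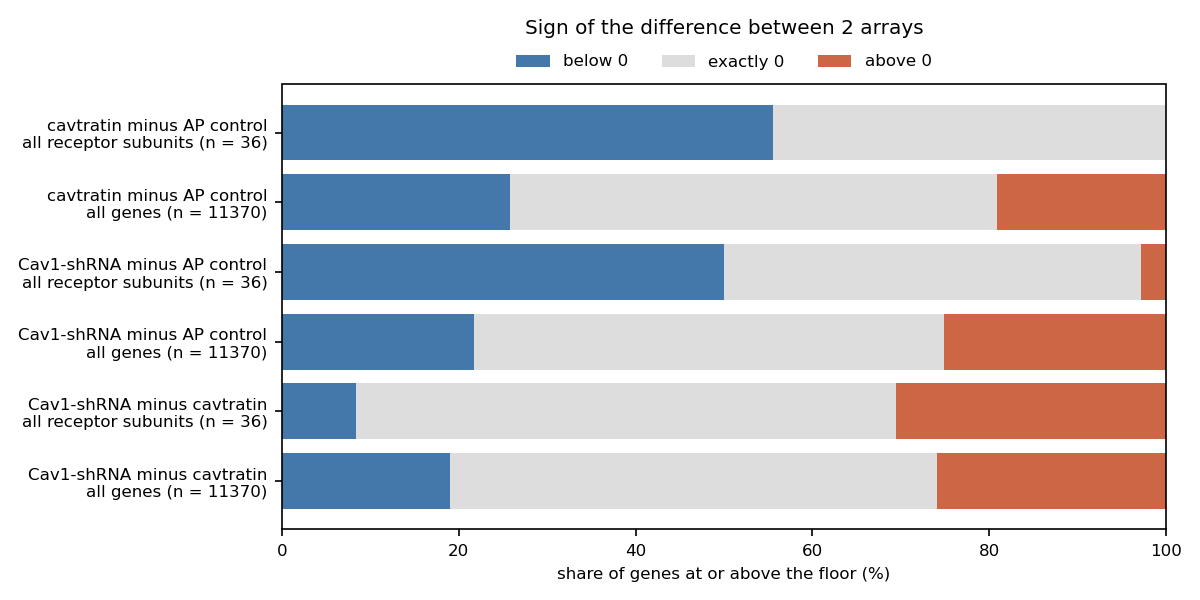
Share of genes at or above the floor (%, horizontal axis) whose difference was below, exactly or above 0, for the 36 receptor subunits and all 11370 genes in each comparison. The subunits show 55.6% below 0 in cavtratin and 50% in Cav1-shRNA, against 25.8% and 21.7% of all genes; under centring these become 50% and 33.3%, against 23.8% and 9.71%.

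The signs depended on how arrays were scaled, because many values tied exactly and the array medians were not equal, at 6.07 in AP control, 6.06 in cavtratin and 6.01 in Cav1-shRNA. With each array centred on its median, 18 subunits were lower and 18 higher in cavtratin, and 12 were lower and 24 higher in Cav1-shRNA. Quantile normalization gave 36 lower and 0 higher in cavtratin, where 79.9% of all genes were then below 0. It gave 17 lower and 19 higher in Cav1-shRNA, where 47.2% of subunits and 17.1% of all genes were below 0. After subtraction of a loess trend, 20 were lower and 6 higher in cavtratin, and 18 were lower and 18 higher in Cav1-shRNA. Apart from Gabrb1 in Cav1-shRNA (0.0062), those higher were deposited ties. The loess fit moved them by at most 5.4e-08 in cavtratin and 0.0004 in Cav1-shRNA. Under centring the share below 0 was 50% of subunits and 23.8% of all genes in cavtratin, and 33.3% and 9.71% in Cav1-shRNA. Centring moved every Cav1-shRNA minus AP control difference up by 0.058, so smaller negative differences printed here for that array turned above 0 under it. Single-gene differences of at least 0.1 kept their sign under the 3 scalings, both for the subunits at or above and below the floor and for the list genes, although some changed in size.

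Different probe sets of a single gene also gave differences that parted. In 271 genes more than 1 probe set reached the floor. For these, the differences given by a pair of probe sets parted by a median of 0.040 in cavtratin minus AP control and 0.040 in Cav1-shRNA minus AP control. The 90th percentile of this gap was 0.208 and 0.199. At or above the floor, Gria4, Gabrg1, Gabrr3, Gabra4 and Gabra3 exceeded it in size in cavtratin, and Gria2, Grik2 and Gria4 in Cav1-shRNA. In 1 gene in 20 the probe sets parted by more than 0.34 and 0.30, which no subunit difference reached. An exact tie in the deposited values does not show that a subunit was expressed equally.

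Receptor subunits that lie side by side in the genome did not always share a pattern. Gabrg1 and Gabra2, neighbours on chromosome 5, were lower than AP control in both other arrays. Gabra4 and Gabrb1, also on chromosome 5, were both lower in cavtratin, but Gabrb1 was not lower in Cav1-shRNA. Gabrr2 and Gabrr1 on chromosome 4 were both equal in all arrays. Gria2 and Glrb on chromosome 3 parted, with Gria2 lower in both other arrays and Glrb equal, as did Gabrg3, which was lower, and Gabra5, which was equal, on chromosome 7.

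Many of the genes were long, and among all genes the longest were most often lower than AP control on the deposited scale. The median span in the RefSeq table was 206 kb for the 20 subunits with unequal values and 184 kb for the 16 equal ones, against 24.8 kb for all genes. Of the 420 genes of 300 kb or more, 44.3% were lower in cavtratin and 41.4% in Cav1-shRNA, beside 27.02% and 19.3% of genes under 20 kb and 22.6% and 21.7% of genes of 20 to 50 kb. Of the 13 subunits of 300 kb or more, 6 and 5 were lower. Under 20 kb 1 of 3 subunits was lower in each comparison, and from 20 to 50 kb 0 of 4. From 50 to 100 kb 5 of 6 subunits were lower in each comparison, where 22.1% and 22.6% of all genes were. From 100 to 300 kb 8 of 10 were lower in cavtratin and 7 of 10 in Cav1-shRNA, beside 26.9% and 22.04%. The part of gene span in the result was not tested.

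**Figure D4:**
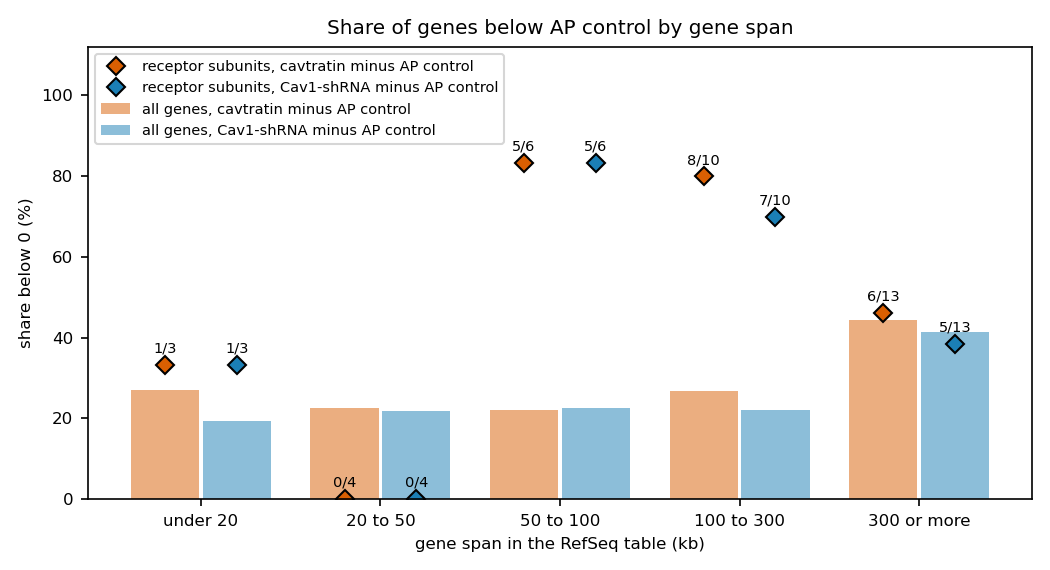
Share of genes below AP control (%, vertical axis) by gene span in kb (horizontal axis), with bars for all genes at or above the floor and diamonds for receptor subunits, each diamond marked with its count of subunits; directions are those of the deposited scale. Bars reach 44.3% and 41.4% for genes of 300 kb or more. Diamonds stand furthest above the bars from 50 to 300 kb, and from 20 to 50 kb they stand at 0 of 4.

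The shares also differed by level. In cavtratin minus AP control, 20.5% of all genes with means from the floor to 7.5 were below 0, and 36.2% of those at 10.5 or more. The subunits gave 3 of 12 in the lowest of these ranges and 0 of 1 in the highest. From 7.5 to 8.5 they gave 5 of 7, beside 25.0% of all genes. From 8.5 to 9.5 they gave 8 of 9, beside 28.0%, and from 9.5 to 10.5 they gave 4 of 7, beside 31.4%. The part of signal level in the result was not tested.

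Genes for proteins that hold receptors at synapses or modify them formed another list. The list held auxiliary subunits and scaffolds, of which 32 of 40 measured genes were at or above the floor. In cavtratin 16 of the 32 were lower than AP control and 5 higher, or 50% and 15.6%, beside 25.8% and 19.2% of all genes. In Cav1-shRNA 12 were lower and 4 higher, or 37.5% and 12.5%, beside 21.7% and 25.1%. Centring added 0.058 to each of these Cav1-shRNA differences and turned the smaller negative ones above 0. It left 9.71% of all genes below 0. Kctd12, an auxiliary subunit of GABA-B receptors, was at 6.79 in AP control, 7.33 in cavtratin and 6.85 in Cav1-shRNA, a difference of 0.54 in cavtratin. Its relative Kctd8 was at 7.35 in AP control and 7.10 in both others, a difference of -0.26. Shisa9, an auxiliary subunit of AMPA receptors, was at 8.66, 8.73 and 8.88 in AP control, cavtratin and Cav1-shRNA. Dlg2, a scaffold of the postsynaptic density, was at 9.18, 9.08 and 9.05. Gphn, which encodes gephyrin, was at 10.15 in AP control and 10.07 in both others.

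The list around mGluR6 held genes that carry its signal in ON bipolar cells, and Cacna1f, Cacna2d4 and Elfn1, which act on the photoreceptor side of that synapse. Of 13 at or above the floor, 7 were lower than AP control in each comparison, with a median of -0.025 in both, and 0 and 1 were higher. Gpr179, which anchors regulators of the cascade, had 8.93 in AP control and 8.71 in both others, a difference of -0.22. Trpm1, the cation channel that the cascade closes, was at 9.62 in AP control, 9.54 in cavtratin and 9.52 in Cav1-shRNA. Of the photoreceptor-side genes, Cacna1f stood at -0.033 in both comparisons and is among the 7, and the others were equal in all arrays. Gnao1, the G protein alpha subunit, stood at -0.055 in both comparisons. Nyx, which encodes nyctalopin, had 7.10 in Cav1-shRNA and 6.98 in both other arrays. By these counts on the deposited scale 53.8% of the list was below 0, where 25.8% and 21.7% of all genes were. In Cav1-shRNA only Gpr179 and Trpm1 stayed below 0 under centring, at -0.16 and -0.046. The smaller negative differences turned above 0 there, and 9.71% of all genes were below 0.

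Genes that make, release and clear the transmitters stood near all genes in cavtratin. Of 21 at or above the floor, 6 were lower and 3 higher in cavtratin, or 28.6% and 14.3%, beside 25.8% and 19.2% of all genes. In Cav1-shRNA 3 were lower and 8 higher, or 14.3% and 38.1%, beside 21.7% and 25.1%, and both medians were 0. Slc17a6, a vesicular glutamate transporter of ganglion cells, was at 9.05 in AP control, 8.97 in cavtratin and 9.17 in Cav1-shRNA. Slc6a11, a GABA transporter, stood at -0.026 in cavtratin and 0.086 in Cav1-shRNA, and Slc6a13, another, at 0.080 in cavtratin and 0 in Cav1-shRNA. Gad1, which makes GABA, was at 7.65 in AP control and 7.70 in both others.

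Among markers of cell types, some of microglia and macrophages, neutrophils and, in cavtratin, lens were at least 2-fold apart from AP control. At or above the floor these were 3 of 6, 2 of 2 and 3 of 4 in cavtratin, beside 1.18% of all genes. In Cav1-shRNA they were 3 of 6, 1 of 2 and 0 of 4, beside 0.44%. Of the microglia list, Fcer1g, Mpeg1 and Cd68 stood at 1.85, 1.64 and 1.58 in cavtratin and at 1.09, 1.21 and 1.07 in Cav1-shRNA. Cx3cr1 and C1qa stood at 0.014 and 0.042 in cavtratin and at 0.15 and 0.45 in Cav1-shRNA. The lens genes were Cryaa, Cryba1 and Crygs, while Mip stood at -0.059. Retinal neurons were present by their markers: Gnat1, the rod transducin, was at 13.19 in all 3 arrays, and the rod, amacrine and horizontal markers had 3 of 6, 1 of 6 and 1 of 3 members lower in cavtratin than in AP control. Cone markers were lower in 6 of 7 (median -0.096), bipolar cell markers, which include Grm6, in 4 of 5 (-0.076), and ganglion cell markers in 5 of 7 (-0.078), with Pou4f1, a ganglion cell transcription factor, at -0.31. In Cav1-shRNA these counts were 3 of 7, 3 of 5 and 4 of 7. The share of all genes lower than AP control was 25.8% in cavtratin and 21.7% in Cav1-shRNA, and under centring 23.8% and 9.71%. Centring turned Sag, Pde6c, Pde6h, Isl1 and Calb1 above 0 in cavtratin. In Cav1-shRNA it turned Sag, Opn1mw, Pde6c, Pou4f1 and Sncg, among others, above 0. Medians in cavtratin and Cav1-shRNA were 0 and 0.087 for Muller glia, 0.11 and -0.17 for retinal pigment epithelium and 0.13 and 0.28 for vascular endothelium. Microglia and macrophage markers at or above the floor were higher than AP control in 6 of 6 in both arrays, with medians of 0.94 in cavtratin and 0.76 in Cav1-shRNA. Their summed linear level over 7 markers was 1439.5 in AP control, 3458 in cavtratin and 2524 in Cav1-shRNA. The sum over 6 neutrophil markers was 360 in AP control, 1874 in cavtratin and 591 in Cav1-shRNA, with S100a9, Mmp8, Retnlg and Ly6g below the floor. The sum over 7 lens markers was 1259.5, 7813 and 1117, with Crygd, Lim2 and Bfsp1 below the floor and a median of -0.13 in Cav1-shRNA at or above it. Summed rod markers were within 29149 to 29530. In RNA from whole pooled retinae, fewer cells of a type and less RNA per cell cannot be told apart, and the part of these other cells in the receptor differences was not tested.

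The promoters of 35 of the 46 subunits were found in the RefSeq table, as 42 windows of 250 bases. Their median GC content was 58.8% and their median count of CpG dinucleotides 8, against 52.4% and 6 over 32851 windows of 27025 genes. The letters of 7 motifs were searched on both strands. The GC box GGGCGG was in 21 of 42 windows and in 32.7% of all windows, the TATA box TATAAA in 5 and in 12.4%, and the E-box CAGCTG in 2 and in 13.0%. TAATCC, the core bound by the photoreceptor factor Crx, was in 2 (Gabra2 and Gabrr2) and in 6.25% of all. The NRF1 core GCGCATGC was in 1 (Gabrb1) and in 2.26%, the REST half-site TTCAGCACC in 1 (Grm2) and in 0.301%, and the cyclic AMP element TGACGTCA in 0 and in 1.55%. Of the sequences printed, Gabrr1 held a GC box and the other 3 held none of these letters. Among subunits with unequal values 8 of 16 with a window had a GC box, as did 8 of 11 with equal values, and the median CpG counts were 8 and 13.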

How the data were processed

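Total RNA was amplified and hybridised as biotin-labelled cDNA to Affymetrix whole-transcript arrays, per the labels' protocols. The deposited table gives 1 value per probe set and array, which was read as log2 expression from the range of the values. Not given in the sources used here are the base of the logarithm, how probes were summarised and how arrays were normalized. GEO's annotation of the platform, possibly outdated, paired 23521 of the 41345 probe sets with exactly 1 symbol, 1814 with several and 16010 with none. Of those with 1 symbol, 51 belonged to the receptor subunits, of which 5 had several. Some subunits of these receptor families are not reported here. All 46 subunits matched the RefSeq gene table (GRCm38.p6). Differences were taken between deposited values, with values equal to within 1e-09 called equal. The number of arrays, 1 per group, limits the precision.

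The subunits and the gene lists were chosen with earlier results of these data known. Every subunit was named, and values in every array were given for subunits at or above the floor with a difference of at least 0.1 and for classes of fewer than 4, beside other ranges or values. From the gene lists up to 4 genes each with large differences were named, though from some cell type lists none were. Some list genes with small differences in cavtratin, such as Cacna1f, Mip, Gnat1, Cx3cr1 and C1qa, were also named. Gphn, Gabrp, Grin2a, Grik3, Gabra6 and second probe sets were added after their values were seen. Alternatives were centring, quantile normalization, a loess trend with a span of 0.3, other floors, thresholds of 0.2 and 0.3, the mean of probe sets, and the mean in place of the median. Python 3.11.15, pandas 2.3.3, numpy 2.4.6 and statsmodels 0.14.6 were used, and the counting was tested on simulated data.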

Additional observations from a re-analysis of the deposited data

How the results depend on the processing

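All values rest on 1 array per group, exact ties hold many medians at 0, and values that tie leave 0 when arrays are rescaled. Single-gene differences of at least 0.1 kept their sign under the 3 scalings, but centring took Gria1 in Cav1-shRNA minus AP control from -0.11 to -0.048, Gabrg1 from -0.15 to -0.091 and the AMPA median from -0.16 to -0.098. The cause of the ties was not tested. No paired analysis was possible because each group had 1 array.

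In cavtratin minus AP control the median over the subunits, -0.014, was -0.0074 under centring, -0.025 under quantile normalization, -0.023 with the mean of all probe sets and with the floor passed by the higher of the compared arrays, -0.046 with the floor at the 60th percentile and 0 with no floor, and the mean was -0.065. Subunits above 0 numbered 18 under centring and 6 under loess, and 36 were below 0 under quantile normalization. The 6 under loess were deposited ties moved by at most 5.4e-08. Subunits at least 0.25 lower numbered 2 with no floor, and thresholds of 0.2 and 0.3 gave 5 and 0.

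In Cav1-shRNA minus AP control the median, -0.0016, turned to 0.056 under centring and 0.0061 under quantile normalization, where the median of all genes was 0.058 and 0.028. It was -0.0032 with the mean of all probe sets and with the higher array at the floor, -0.038 at the 60th percentile and 0 with no floor, and the mean was -0.049. Subunits above 0 numbered 24 under centring, 19 under quantile normalization, 18 under loess and 3 with no floor. Under loess all of these but Gabrb1 were deposited ties moved by at most 0.0004. Those at least 0.25 lower numbered 0 under centring, 2 with no floor, and 3 and 0 at thresholds of 0.2 and 0.3.

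In Cav1-shRNA minus cavtratin the median of 0 was 0.051 under centring, 0.043 under quantile normalization and 1.3e-05 under loess, and the mean was 0.017. Subunits above 0 numbered 33 under both centring and quantile normalization and 23 under loess, and 13 were below 0 under loess. The loess fit moved deposited ties by at most 6.3e-05 in either direction. Class medians turned above 0 under centring for glycine subunits in cavtratin minus AP control (0.0011), for kainate (0.013), group II metabotropic (0.045) and GABA-A subunits (0.0078) in Cav1-shRNA minus AP control, and for kainate subunits in Cav1-shRNA minus cavtratin (0.023). Under quantile normalization the group II median in Cav1-shRNA minus AP control was 0.029.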
